A study of Mus musculus with 10 samples.

Results

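The 41 genes described here encode the machinery that copies DNA, from the complex that marks replication origins to the enzymes that supply nucleotides, and were chosen by gene symbol from the authors' expression matrix, where all 41 were found among 15686 genes. Their levels were read as a measure of proliferation over 5 stages of the serum differentiation of mouse embryonic stem (ES) cells toward blood, by nuclear RNA sequencing (RNA-seq) of 2 libraries per stage. The HM-1 line, an ES cell line used for gene targeting, was the source of every library, and the cells carry a reporter cassette in the HPRT locus. ES cells were cultured in serum with LIF on gelatin. The hemangioblast (HB) cells were selected on beads for FLK1 from embryoid bodies grown for 3 days. The 2 stages of the hemogenic endothelium and the hematopoietic progenitors (HP) were sorted after FLK1+ cells had been cultured further in blast medium with VEGF and IL-6: HE1 as KIT+ TIE2+ CD41-, HE2 as KIT+ TIE2+ CD41+ and HP as KIT+ TIE2- CD41+. All stages thus come from 1 line grown in culture, and HE1, HE2 and HP were separated from the same kind of culture by surface markers. The replicates of a stage are described with the data as biologically independent, without saying what each came from.

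Each library held between 24920434 and 58782055 counts on genes. All 41 members passed the filter on low counts, which left 22596 genes for testing, and the lowest count of a member in a library was 304. Levels are given as CPM, the counts of a gene relative to the total of its library after scaling by the trimmed mean of M values (TMM), and differences as log2 ratios from edgeR's quasi-likelihood fit over all 10 libraries. A gene was called at an adjusted p under 0.05 (Benjamini-Hochberg over all genes tested). The summed markers of the stages were compared with the labels. The summed level of 6 ES markers fell from 2375 and 2333 CPM in the ES libraries to between 9.91 and 153 CPM in all later ones, that of 6 HP markers was highest in HE2 and HP (between 995 and 1393 CPM), and that of 6 hemogenic endothelium markers had its highest mean in HE1 (3131 and 1863 CPM, beside 2005 and 1372 CPM in HE2). Kit, one of these markers and an antigen of the HE1 sort, was at 146 and 72.9 CPM in HE1, beside 73.3 and 69.3 CPM in HB and 163 and 173 CPM in ES, and was not called between HB and HE1. Summed levels of 4 smooth muscle markers were 622 and 938 CPM in HE1, between 362 and 760 CPM in HE2 and HP and at most 17.1 CPM in HB. The 5 cardiac markers summed to 25.4 and 93.4 CPM in HE1, and 6 erythroid markers to 538 and 262 CPM in HE1, 2183 and 1682 CPM in HE2 and 4685 and 2403 CPM in HP.

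In a dividing cell, origins of replication are bound by the origin recognition complex (ORC), on which CDC6 and CDT1 load the ring-shaped MCM2-7 helicase before S phase, a step called licensing. CDC45 and the GINS complex then join the ring to form the active helicase, polymerase alpha-primase lays down primers, and polymerases epsilon and delta extend the new strands with the sliding clamp PCNA, which replication factor C (RFC) loads. Many of the genes are transcribed in a cell cycle-dependent manner, mainly through E2F factors at their promoters, and are high in cycling cells such as ES cells. In these bulk samples, fewer cells in cycle and less RNA of these genes in each cell cannot be told apart.

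E2F sequences were found in the promoters of 16 of the 33 members with a promoter window. Of these promoters, 7 are shown because their genes stand for the 3 kinds of course described below. Mcm5, Mcm6 and Mcm7 are helicase genes called lower in HE1 than in HB and higher in HP than in HE1. Orc1 and Pola1 fell after the ES stage and were still lower in HP than in ES. Cdc6 and Gins3 were called in no pair of neighbouring stages. The sequences are the 180 bases before the annotated start, from RefSeq on GRCm38.p6, in the direction of the gene. The annotation used for counting starts some genes further upstream. The stretches of Cdc6 and Mcm7 lie wholly, and those of Orc1 and Gins3 partly, within the genes as counted. Capitals mark every match to TTTGGCGC, TTTCCCGC, TTTCGCGC or TTTGGCGG on either strand, and overlapping matches run together.
Mcm5, chr8:75109329-75109508, plus strand: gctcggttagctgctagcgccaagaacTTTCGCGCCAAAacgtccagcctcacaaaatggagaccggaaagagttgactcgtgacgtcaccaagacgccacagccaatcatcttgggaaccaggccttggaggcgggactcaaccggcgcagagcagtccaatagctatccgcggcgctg
Mcm6, chr1:128359706-128359885, minus strand: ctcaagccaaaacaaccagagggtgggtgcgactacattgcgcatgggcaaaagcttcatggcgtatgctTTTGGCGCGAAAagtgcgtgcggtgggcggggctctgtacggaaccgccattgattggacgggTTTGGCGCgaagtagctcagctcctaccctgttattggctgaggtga
Mcm7, chr5:138171884-138172063, minus strand: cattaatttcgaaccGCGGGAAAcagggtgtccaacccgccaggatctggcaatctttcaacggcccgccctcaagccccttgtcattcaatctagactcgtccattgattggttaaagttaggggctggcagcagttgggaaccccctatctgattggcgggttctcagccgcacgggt
Orc1, chr4:108579274-108579453, plus strand: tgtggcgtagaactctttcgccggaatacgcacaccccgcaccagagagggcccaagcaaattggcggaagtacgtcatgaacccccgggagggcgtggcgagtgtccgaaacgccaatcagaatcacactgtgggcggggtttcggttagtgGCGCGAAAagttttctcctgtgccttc
Pola1, chrX:93632156-93632335, minus strand: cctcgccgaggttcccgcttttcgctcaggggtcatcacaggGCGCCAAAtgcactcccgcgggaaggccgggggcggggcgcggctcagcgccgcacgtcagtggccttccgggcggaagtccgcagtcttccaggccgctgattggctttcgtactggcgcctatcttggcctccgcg
Cdc6, chr11:98907971-98908150, plus strand: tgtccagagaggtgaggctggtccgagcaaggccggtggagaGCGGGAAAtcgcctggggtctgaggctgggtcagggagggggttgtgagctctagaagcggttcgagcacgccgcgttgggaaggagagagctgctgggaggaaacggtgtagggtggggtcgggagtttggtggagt
Gins3, chr8:95633379-95633558, plus strand: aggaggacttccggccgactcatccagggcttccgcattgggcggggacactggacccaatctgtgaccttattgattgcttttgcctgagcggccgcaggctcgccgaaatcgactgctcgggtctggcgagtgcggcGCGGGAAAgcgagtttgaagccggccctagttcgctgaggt

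Over windows of 300 bases (250 before to 50 after the start), 33 of the 41 members had 41 windows between them, and 16 of these windows, 1 in each of 16 genes, held at least 1 of the E2F letters. This is 39.0% of the member windows, beside 2.37% of the 32851 windows of all genes. The genes were Orc1, Orc3, Orc4, Cdc6, Cdt1, Mcm3, Mcm5, Mcm6, Mcm7, Gins3, Pola1, Pola2, Pole2, Pold1, Rfc3 and Lig1. The letters CCAAT, a sequence bound by NF-Y, stood in 53.7% of the member windows and 37.4% of all windows, and TTTGAA, the core of an element of genes expressed late in the cell cycle, in 12.2% and 17.9%. Windows were not held for Gmnn, Mcm4, Gins1, Gins2, Gins4, Prim2, Pole and Rfc2. A match describes the letters and does not show that a factor is bound.

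The summed level of the replication genes was highest in ES cells, fell to its lowest in HE1 and was higher again in HE2 and HP. Of the ES libraries, the first summed to 6618 and the second to 6525 CPM, and the HB libraries followed with 5634 and 5860 CPM. Lower sums were found in HE1, with 3835 and 3226 CPM. For HE2 the sums were 4618 and 6200 CPM, and HP had 6146 and 5387 CPM. Both HE1 libraries lay below the other 8, and the HE2 and HP libraries overlapped each other. The mean per stage was 6571 ± 65.8 CPM for ES, 5747 ± 160 CPM for HB, 3531 ± 430 CPM for HE1, 5409 ± 1120 CPM for HE2 and 5767 ± 537 CPM for HP (SD, n = 2 each). HE1 was the stage with the lowest mean for 35 of the 41 genes, beside 22.3% of all genes tested, and both HE1 libraries were below the other 8 for 30 genes, beside 9.6% of all genes. No member had its highest mean in HE1. The highest mean was in ES for 22 members, in HP for 11, in HB for 7 and in HE2 for Tyms. The F test over the 5 stages called 37 of the 41 members, but also 66.7% of all genes tested, and it did not call Orc4, Gins2, Gins3 and Gins4.

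**Figure D1:**
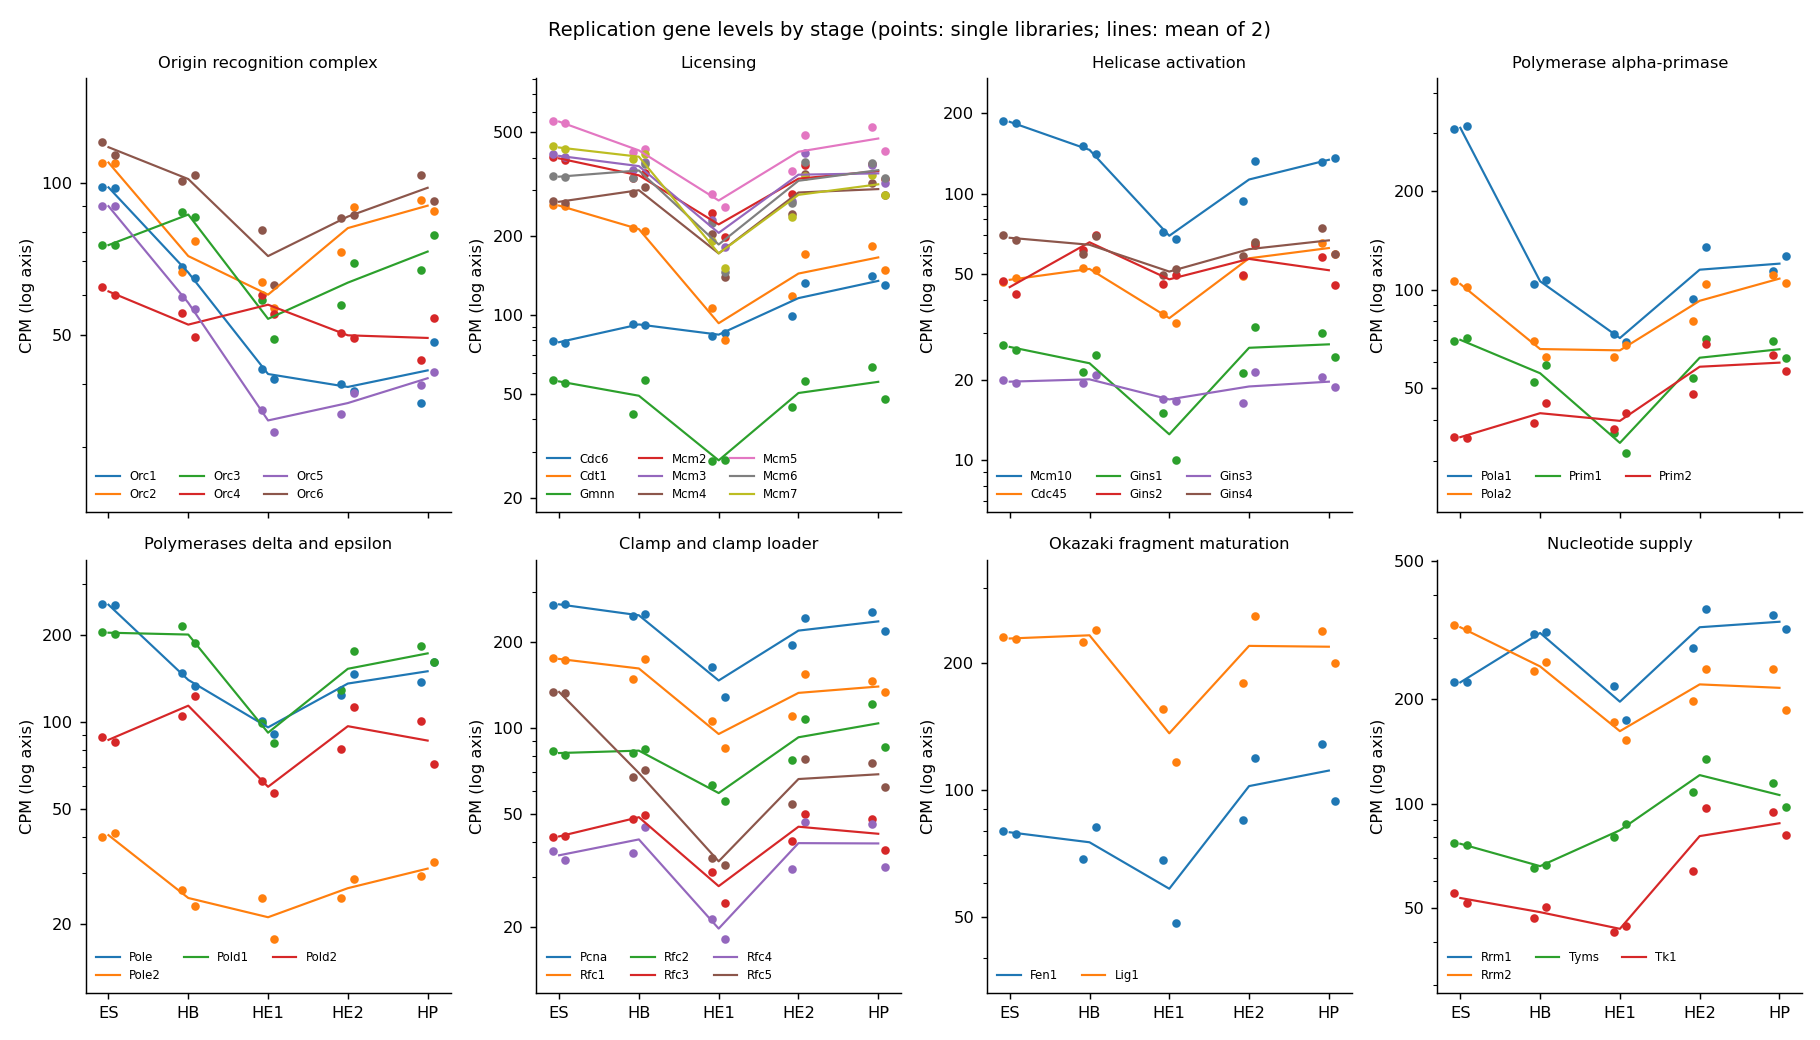
Level of each of the 41 replication genes in CPM (log axis) by stage, in a panel for each role in replication; points are single libraries and lines join the means of 2. Most lines have their lowest point at HE1. For 16 genes both ES libraries lie above the other 8, among them Orc1, Orc5, Pola1, Pole and Rfc5.

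The members moved together between replicates as well as between stages, so their counts are not counts of independent events. In HE2, 39 of the 41 members were higher in replicate 2 than in replicate 1, by a median of 0.40 on the log2 scale, whereas the median over all genes was -0.02. In ES, HE1 and HP, 33 members were higher in replicate 1, beside 51.2%, 51.3% and 52.2% of all genes, with medians of -0.02, -0.18 and -0.19 for replicate 2 minus replicate 1. In HB, 29 members were higher in replicate 2, with a median of 0.06. Part of this depended on the scaling. As a share of the total counts, the members had 0.366% and 0.365% in HE1 replicates 1 and 2. In HB they had 0.587% and 0.577%, the order opposite to that of the CPM sums. In HE2 the shares were 0.458% and 0.594%, in ES 0.635% and 0.624%, and in HP 0.598% and 0.573%. Among marker lists, the HE2 replicate with the higher replication level had the higher summed HP markers (1364 against 995 CPM) and lower summed smooth muscle (406 against 650 CPM), erythroid (1682 against 2183 CPM) and hemogenic endothelium markers (1372 against 2005 CPM). The HE1 replicate with the lower TMM-scaled replication level, replicate 2, had more smooth muscle (938 against 622 CPM) and cardiac (93.4 against 25.4 CPM) marker RNA. It also had more ES marker RNA (106 against 46.6 CPM) and less hemogenic endothelium marker RNA (1863 against 3131 CPM). Of the ES markers, Klf4 alone was lower in replicate 2 (26.8 against 39.8 CPM), and Pou5f1 was higher (26.2 against 2.82 CPM). The part of these cells in the replication gene levels was not tested.

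**Figure D2:**
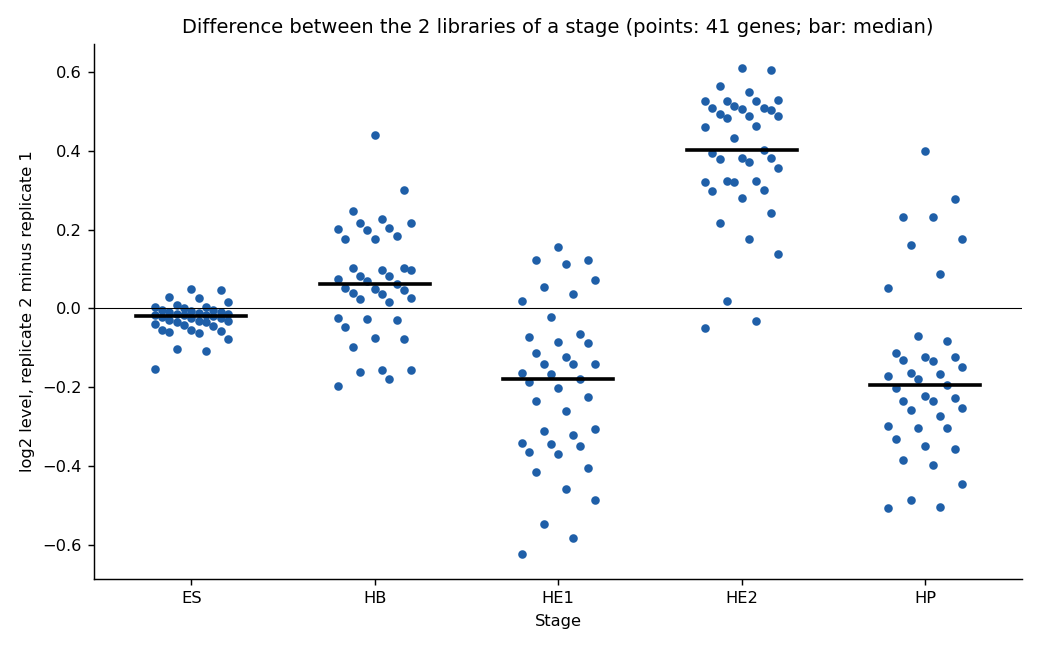
Difference in log2 level between replicate 2 and replicate 1 of each stage; points are the 41 replication genes and bars their medians. The points of ES lie near 0, those of HE2 lie above 0 for 39 genes, and those of HE1 and HP lie mostly below 0.

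The first comparison asks how replication genes changed when ES cells became hemangioblasts. Subunits of polymerases alpha and epsilon and of ORC fell, and 31 of the 41 members did not pass the test. Of the 41 members, 8 fell, beside 22.6% of all genes that were called lower, and 2 rose, beside 17.8% called higher. The median difference of the members was -0.13, and that of all genes was 0. The share of members called in either direction was thus no higher than among all genes.

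Pola1, which encodes the catalytic subunit of polymerase alpha and lies on the X chromosome, had the largest ratio of its highest to its lowest stage mean among the members (4.39). It was at 309 and 315 CPM in ES and at 104 and 107 CPM in HB, and no later library exceeded 135 CPM. The difference between HB and ES was -1.56 ± 0.17 (SE; adjusted p = 6.76e-05, edgeR). Rfc5, a subunit of the clamp loader, was at 134 and 133 CPM in ES and at 67.6 and 71.5 CPM in HB (-0.94 ± 0.18, adjusted p = 0.00187 by edgeR). Pole, the catalytic subunit of the leading-strand polymerase, was at 256 and 255 CPM in ES and at 148 and 133 CPM in HB (-0.86 ± 0.15, adjusted p = 0.0011 by edgeR). In each of the 3 genes both ES libraries lay above all 8 others.

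The other genes that fell were Orc1, Orc2 and Orc5 of the origin recognition complex (differences between -0.56 and -0.64), Pola2, the second polymerase alpha subunit (-0.66), and Pole2, an accessory subunit of polymerase epsilon (-0.72). Gins2 rose by 0.56 ± 0.18 (adjusted p = 0.0269, edgeR), from 46.9 and 42.2 CPM to 61.6 and 69.9 CPM. Rrm1, the large subunit of the ribonucleotide reductase that makes deoxynucleotides, rose from 224 CPM in both ES libraries to 309 and 313 CPM (0.47 ± 0.17, adjusted p = 0.045 by edgeR). None of the 9 licensing genes was called. Without any one of the 4 libraries no member was called higher, and Orc5, Pola1, Pole and Rfc5 remained called lower in each of these 4 fits, which called between 4 and 6 members lower. In a fit of the ES and HB libraries alone, 7 members rose and 14 fell. The share of all genes called in that fit is not given, so these counts are not compared with all genes.

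Some subunits that work in 1 complex stood in different proportions in ES cells and afterward. Per kilobase of exon, the level of Pola1 was 5.86 and 6.03 times that of Prim2, the large primase subunit, in the ES libraries and between 1.11 and 1.80 times in the 8 others. The level of Rfc5 was 1.19 and 1.27 times that of Rfc4 per kilobase in ES and between 0.52 and 0.63 times in the other libraries. The polymerase alpha-primase subunits ranged over 5.95-fold per kilobase in ES, from Prim2 at 5.95 to Pola1 at 35.4 CPM per kilobase, and over 1.32-fold in HE1. In both ratios the ES libraries did not overlap the others. Pola1 and Rfc5 had been called lower in HB than in ES, so these ratios were not free of that choice. The range within other complexes changed less: for ORC it was 5.82-fold in ES and between 5.32-fold and 6.01-fold later. For GINS it was 6.97-fold and between 6.08-fold and 6.81-fold, and for RFC 2.53-fold and between 2.04-fold and 2.18-fold.

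The next comparison, between HB and HE1, asks how replication genes changed as endothelium formed, and it held the most calls of members among the neighbouring stages. Of the 41 members, 28 fell, beside 14.8% of all genes, and none rose, beside 17.5% of all genes. The median difference was -0.66 for the members and 0.04 for all genes, and 39 of the 41 differences were negative. The libraries of HE1 lay below those of HB for 36 members, beside 32.6% of all genes. At a threshold of 2-fold, 6 members fell, beside 8.19% of all genes, so that the changes were frequent but of moderate size. Without HB replicate 2 or without HE1 replicate 2, 12 members were called lower instead of 28. Orc1, Orc3, Orc5, Cdt1, Mcm7, Mcm10, Pold1, Pold2, Pcna and Rfc5 remained called in each of the 4 fits without 1 of these libraries. Markers of other cells moved in the same comparison: 5 of 6 erythroid, 3 of 4 smooth muscle, 3 of 5 cardiac, 2 of 5 macrophage and 2 of 4 neural markers rose from HB to HE1, 1 erythroid and 1 cardiac marker fell, and their part in the result was not tested.

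Of the 9 licensing genes, 8 fell. Mcm7, a subunit of the helicase ring, was at 395 and 412 CPM in HB and at 192 and 151 CPM in HE1 (-1.23 ± 0.20, adjusted p = 0.00125 by edgeR). Cdt1, which brings the ring to the origin, was at 216 and 209 CPM in HB and at 106 and 80.0 CPM in HE1 (-1.20 ± 0.20, adjusted p = 0.00175 by edgeR). Mcm6 fell by 0.94 on the log2 scale, from 335 and 378 CPM to 225 and 146 CPM (SE 0.23, adjusted p = 0.0105 by edgeR). All 6 ring subunits fell, by between 0.62 and 1.23 in log2 level, and in each of them the libraries of the 2 stages did not overlap. Geminin (Gmnn), the inhibitor of CDT1, was lower as well, at 41.7 and 56.6 CPM in HB and 27.7 and 28 CPM in HE1. Cdc6 was the licensing gene that was not called, with 92.7 and 91.2 CPM in HB and 83.0 and 85.2 CPM in HE1.

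Within the helicase ring, some proportions held and others changed. Per kilobase of exon, Mcm2 had the lowest and Mcm5 the highest level of the 6 ring genes at every stage, and the ratio between them lay between 2.15 and 2.4. The sum of the 6 genes was 549 CPM per kilobase at the ES stage, 506 at HB, 282 at HE1, 461 at HE2 and 495 at HP (means of 2 libraries). The level of Mcm7 was 1.32 and 1.31 times that of Mcm4 per kilobase in the ES libraries, 1.1 and 1.08 times in HB and between 0.763 and 0.875 times in the 6 later libraries.

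Of the genes that activate and extend the fork, Mcm10, which helps to start the helicase, was at 151 and 141 CPM in HB and at 71.7 and 67.4 CPM in HE1 (-1.07 ± 0.17, adjusted p = 0.0011 by edgeR). Cdc45 and Gins1 were also called lower, whereas Gins2, Gins3 and Gins4 were not. Gins1 was at 21.5 and 24.7 CPM in HB and at 15.0 and 10.0 CPM in HE1, while Gins3 was at 19.4 and 20.9 CPM and at 17.0 and 16.7 CPM. The 4 subunits of GINS thus did not all pass the test, although none of the 4 differences was positive. Pold1, the catalytic subunit of the lagging-strand polymerase, was at 215 and 188 CPM in HB and at 99.0 and 84.7 CPM in HE1 (-1.13 ± 0.18, adjusted p = 0.00107 by edgeR). Its partner Pold2 fell by 0.94 on the log2 scale (SE 0.20, adjusted p = 0.00633 by edgeR).

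Of the clamp and its loader, 5 of 6 genes fell. Pcna, the sliding clamp, was at 247 and 252 CPM in HB and at 164 and 129 CPM in HE1. Rfc4 fell by 1.04 and Rfc5 by 1.03 in log2 level (SE 0.23 and 0.18, adjusted p = 0.00698 and 0.00207 by edgeR), and Rfc2 was not called. Lig1, the ligase that joins Okazaki fragments, was called lower, and Fen1, the nuclease that trims them, was not.

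Nucleotide supply was divided. Both subunits of ribonucleotide reductase were called lower, with Rrm1 at 309 and 313 CPM in HB and 219 and 175 CPM in HE1, and Rrm2 at 242 and 257 CPM and at 172 and 153 CPM. Tyms, the thymidylate synthase, was at 65.5 and 66.6 CPM in HB and at 80.3 and 87.5 CPM in HE1, so that its HE1 libraries were the higher ones. It was not called over all genes tested and was called higher when only the genes of the authors' matrix were tested. Tk1, which salvages thymidine, was at 47.0 and 50.5 CPM in HB and at 42.8 and 44.4 CPM in HE1 and was not called.

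In the origin recognition complex, 4 of 6 genes fell, but their courses differed. Orc1, the subunit whose level is regulated through the cycle, stood at 98.3 and 98.1 CPM in ES. Its HB libraries had 68.2 and 64.8 CPM, its HE1 libraries 42.7 and 40.9 CPM, its HE2 libraries 40 and 38.7 CPM and its HP libraries 36.6 and 48.3 CPM. Orc5 had 90.0 and 90.2 CPM as ES cells, 59.4 and 56.3 CPM as HB, 35.4 and 32.1 CPM as HE1, 34.8 and 38.4 CPM as HE2 and 39.7 and 42.2 CPM as HP. Both genes fell from ES to HB and again from HB to HE1, and neither was called among HE1, HE2 and HP. Orc4 had between 44.6 and 62.2 CPM over all 10 libraries and was called in no comparison.

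The fall into HE1 was counted for members with and without the letters shown above. Of the 16 genes with the E2F letters, 11 fell between HB and HE1 (68.8%), as did 13 of the 17 with a window but without them (76.5%). Of the 20 genes with CCAAT, 17 fell (85.0%), as did 7 of the 13 without (53.8%). Of the promoters shown, those of Mcm5, Mcm6, Mcm7, Orc1 and Pola1 belong to genes that fell, and those of Cdc6 and Gins3 to genes that were not called. These shares are given as counts, without a test.

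The comparison of HE2 with HE1 asks what happened to replication genes as CD41 appeared on the endothelium. Of the members, 20 were not called, and the calls of the others depended on single libraries. Of the 41 members, 21 rose, beside 6.12% of all genes, and none fell, beside 7.11%. The median difference was 0.64 for the members and -0.08 for all genes. The HE2 libraries lay above the HE1 libraries for 35 members, beside 28.8% of all genes, and below them for Orc1 and Orc4, beside 30.4% of all genes. No member was called without HE1 replicate 2, without HE2 replicate 2, or in a fit of the 4 libraries of the 2 stages alone, and 11 were called with the replicate number as a block. The number of all genes called in those fits is not given, so they cannot show whether the members differ from all genes. In the main fit of this comparison, 6 of 6 erythroid and 1 of 5 macrophage markers rose. Of the other markers, 6 of 6 ES, 3 of 5 cardiac and 2 of 4 neural markers fell. The part of these markers in the result was not tested.

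Gins1 was the member with the largest difference, at 15.0 and 10.0 CPM in HE1 and 21.3 and 31.6 CPM in HE2 (1.08 ± 0.25, adjusted p = 0.0233 by edgeR). Rfc4 was at 21.4 and 18.2 CPM in HE1 and at 32.1 and 47.0 CPM in HE2 (1.00 ± 0.23, adjusted p = 0.0242 by edgeR). Rfc5 was at 35.1 and 33.1 CPM in HE1 and at 54.3 and 78.2 CPM in HE2 (0.96 ± 0.18, adjusted p = 0.0122 by edgeR). In each of them the second HE2 library was the higher one. Tk1, Prim1, the small primase subunit that makes the primer, Gmnn, Mcm6 and Fen1 followed, with differences between 0.81 and 0.89. By role, 5 of 9 licensing genes, 3 of 6 helicase activation genes, 4 of 6 clamp and clamp loader genes, 3 of 4 nucleotide supply genes and none of the 6 ORC genes were called. A set of 18 genes fell into HE1 and rose into HE2, beside 1.97% of all genes, and Fen1, Tyms and Tk1 rose into HE2 without having been called lower in HE1, beside 4.16%. Both comparisons use the HE1 libraries, so the fall and the rise are not independent, and none of the rises was called without HE1 replicate 2 or without HE2 replicate 2.

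Between HE2 and HP, no replication gene was called. The count over all genes was also 0 with edgeR, while limma-voom called 66 genes, DESeq2 465 genes and edgeR without the filter on low counts 846 genes, with no member among them. At an unadjusted p under 0.05, 2.97% of all genes were higher and 4.93% lower, again with no member. The median difference of the members was 0.11. The smallest adjusted p belonged to Pola2 at 0.899 (edgeR), with a difference of 0.23 and a 95% interval from -0.11 to 0.56. Over the 41 members, the intervals reached from -0.61 for Pold2 to 0.65 for Cdt1, and changes within them are not excluded for these genes. The data do not show that the 2 stages had the same level.

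The comparison of HP with HE1 gave the most calls among increases. Of the 41 members, 30 were higher in HP, beside 11% of all genes, and none was lower, beside 13.9%. The median difference was 0.69 for the members and -0.02 for all genes, and the HP libraries lay above the HE1 libraries for 38 members, beside 28.7% of all genes. This comparison, too, shares the HE1 libraries with that of HE1 with HB. Without HE1 replicate 2, 9 members were called, and 8 without HP replicate 1. Mcm10, Cdc45, Prim1, Pold1, Rfc5 and Tk1 remained called in each of the 4 fits without 1 of these libraries. Of the other markers, 6 of 6 erythroid and 3 of 5 macrophage markers were higher in HP, while 6 of 6 ES, 4 of 5 cardiac, 3 of 4 neural and 1 of 5 macrophage markers were lower, and their part in the result was not tested.

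All 9 licensing genes and all 4 polymerase alpha-primase genes were called higher. Gins1 differed most, at 30.0 and 24.3 CPM in HP (1.12 ± 0.25, adjusted p = 0.00885 by edgeR). Tk1 was at 42.8 and 44.4 CPM in HE1 and at 94.8 and 81.1 CPM in HP (1.01 ± 0.19, adjusted p = 0.00423 by edgeR). Rfc5 was at 75.4 and 62.4 CPM in HP (1.01 ± 0.18, adjusted p = 0.00315 by edgeR), and Rfc4 and Gmnn differed by 1.00 each. Prim1 was at 36.4 and 31.7 CPM in HE1 and at 69.5 and 62.0 CPM in HP (0.95 ± 0.17, adjusted p = 0.00283 by edgeR). Mcm6 and Mcm10 differed by 0.95 each. A set of 22 genes fell from HB to HE1 and was higher in HP than in HE1, beside 3.54% of all genes, and Orc1, Orc3, Orc5, Pold2, Rfc1 and Rrm2 fell into HE1 without a call between HE1 and HP, beside 9.66% of all genes.

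**Figure D3:**
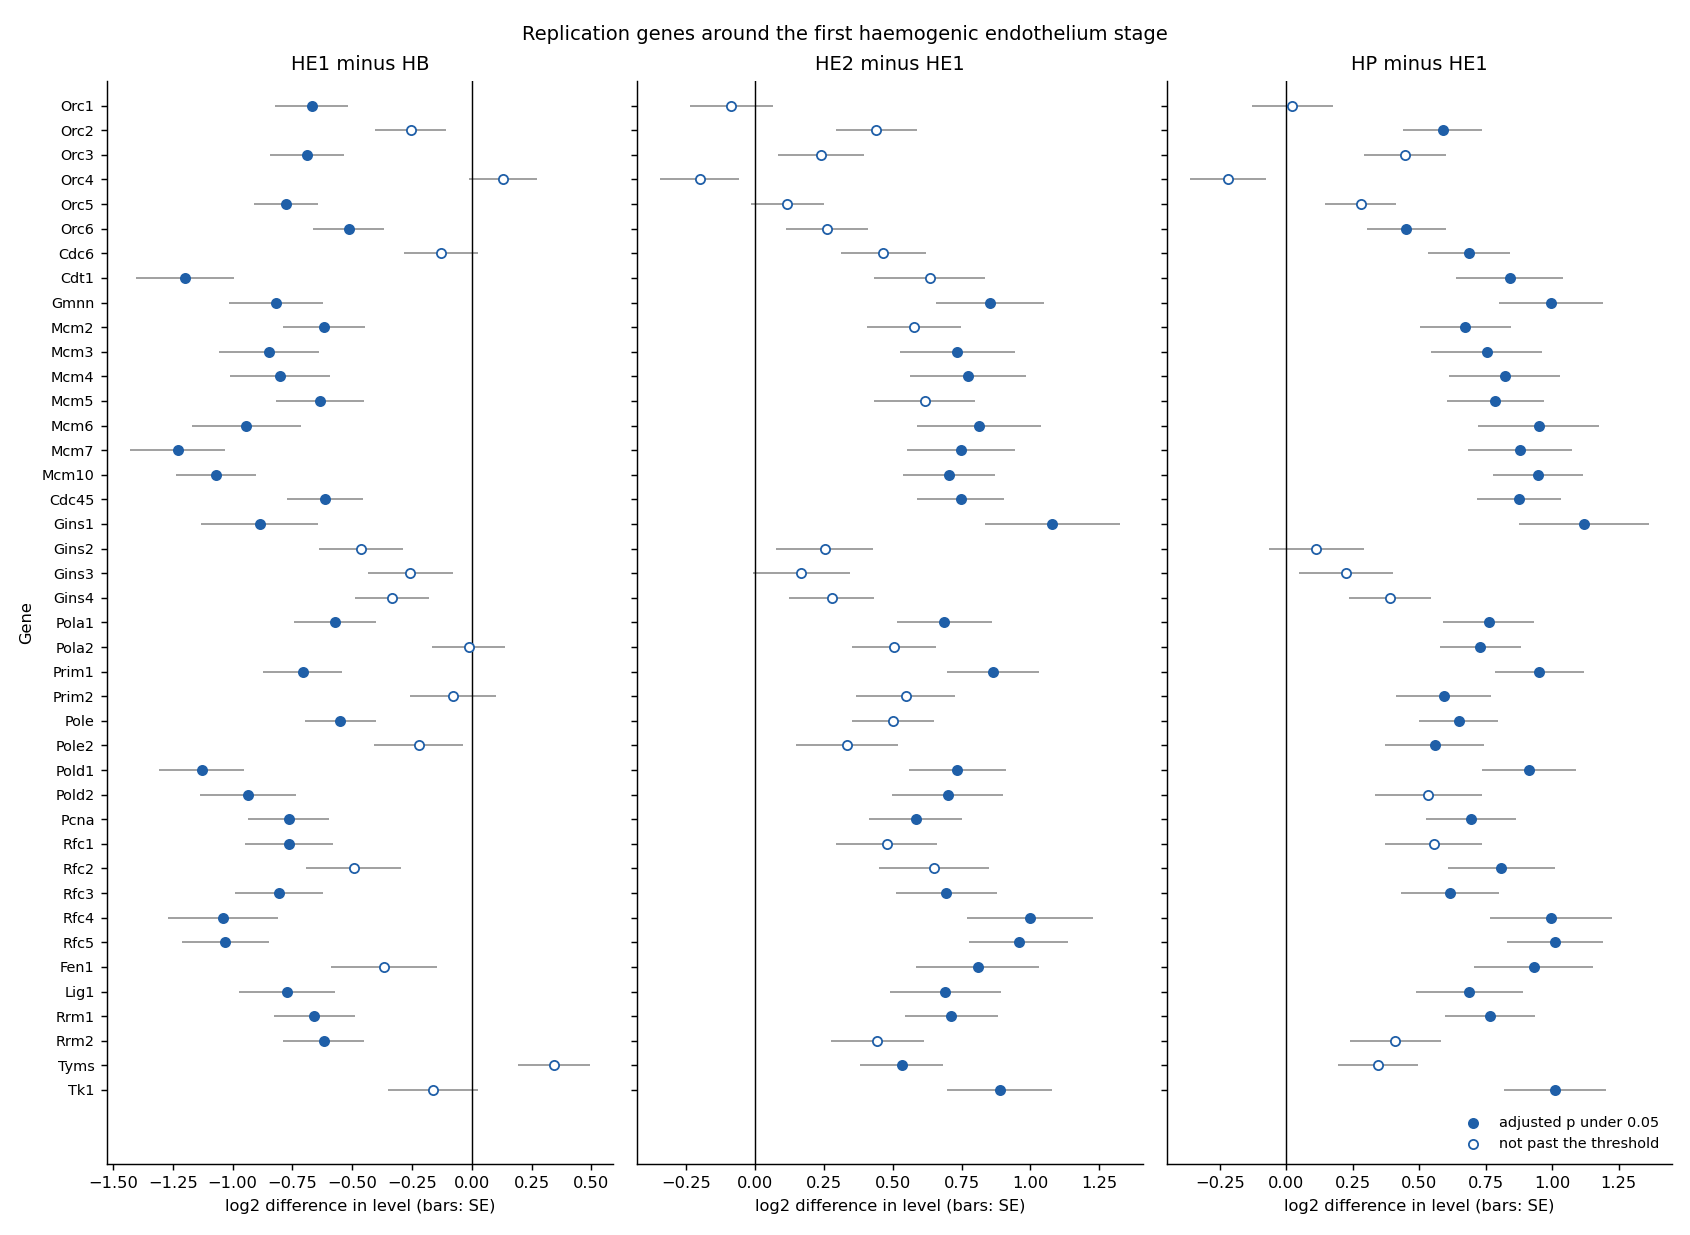
Log2 difference in level for each of the 41 replication genes between HE1 and HB, HE2 and HE1, and HP and HE1; bars are standard errors from edgeR and filled points passed an adjusted p of 0.05. Points lie left of 0 in the first panel for 39 genes and right of 0 in the third for 40 genes.

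The comparison of HP with ES asks whether progenitors returned to the level of ES cells. The members were divided, with 5 higher, beside 24.1% of all genes, and 8 lower, beside 27.5% of all genes. Their median difference was -0.06, and the median over all genes was -0.01. With total counts in place of TMM, the median of the members was 0.02, so its sign depended on the scaling. In either direction the share of members called was below that of all genes.

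Pola1 was at 114 and 127 CPM in HP (-1.37 ± 0.17, adjusted p = 9.09e-05 by edgeR), which is far below its level in ES. Orc1 differed by -1.21 ± 0.15 (adjusted p = 9.1e-05, edgeR), Orc5 by -1.14 ± 0.13 (adjusted p = 5.54e-05, edgeR), Rfc5 by -0.96 ± 0.18 and Pole by -0.77 ± 0.15. These 5 genes also fell between ES and HB, a pair of calls found in 17.3% of all genes, and again between HB and HE1 (2.81% of all genes fell in both of these steps). They remained called lower than in ES in each fit without 1 library. Cdt1, Rrm2 and Mcm10 were lower in HP by 0.66, 0.58 and 0.47 in log2 level. They had not been called between ES and HB, as was so for 9.08% of all genes. In turn, Orc2, Pola2 and Pole2 had fallen between ES and HB and were not called between ES and HP, beside 4.28% of all genes.

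Cdc6 was higher in HP, at 79.7 and 77.8 CPM in ES and at 141 and 130 CPM in HP (0.78 ± 0.15, adjusted p = 0.00168 by edgeR). Prim2 was at 35.5 and 35.2 CPM in ES and at 63.2 and 56.4 CPM in HP (0.76 ± 0.18, adjusted p = 0.00497 by edgeR). Tk1, Rrm1 and Tyms, which all act in nucleotide supply, were higher by 0.72, 0.58 and 0.47 in log2 level, whereas Rrm2, the small subunit of ribonucleotide reductase, was the nucleotide supply gene that was lower. The ratio of Rrm2 to Rrm1 per kilobase was 5.80 and 5.68 in the ES libraries and between 2.32 and 3.47 in the others. Without 1 of the 4 libraries, between 2 and 5 members were called higher, and Cdc6 and Prim2 were called in each of these fits. Without ES replicate 2 or HP replicate 1, 2 were called higher, and without ES replicate 1, 3. Without ES replicate 1, ES replicate 2 or HP replicate 2, 5 members were called lower.

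**Figure D4:**
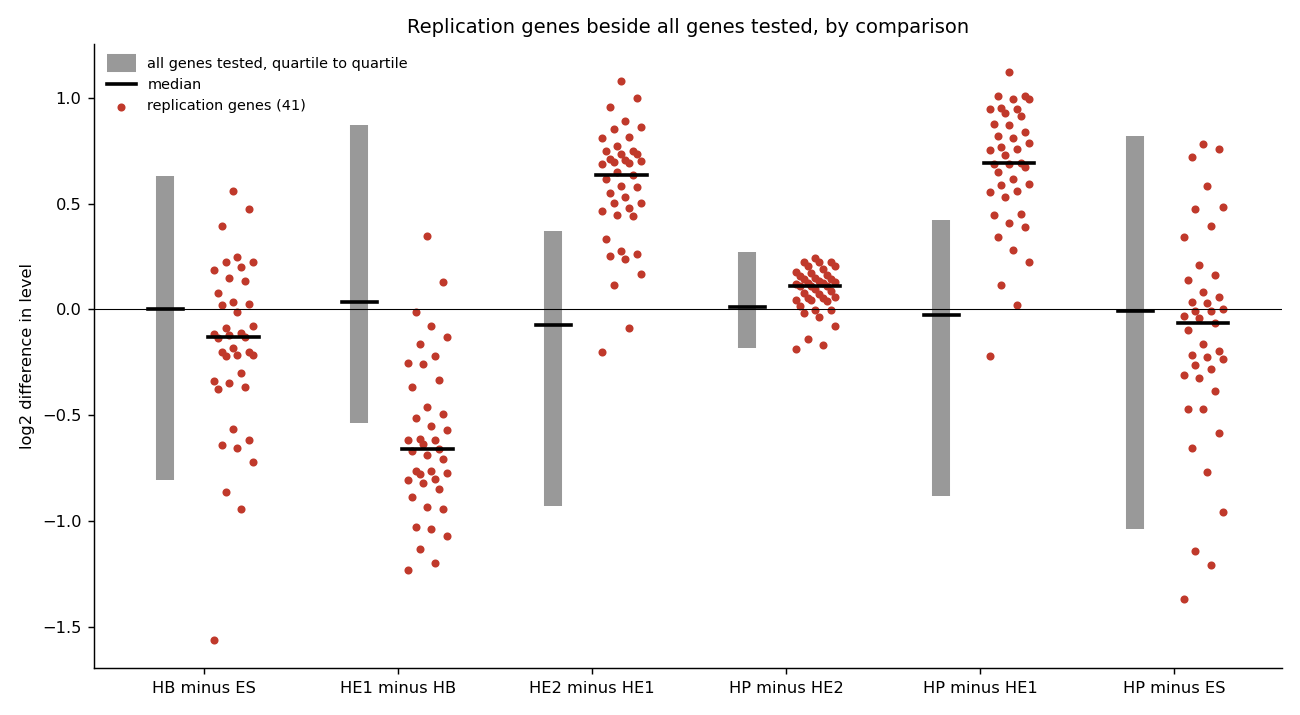
Log2 difference in level in each of the 6 comparisons; red points are the 41 replication genes, gray bars run from the first to the third quartile of all 22596 genes tested, and black bars are medians. Most members lie below the median of all genes in HE1 minus HB (median -0.66) and above it in HE2 minus HE1 (0.64) and HP minus HE1 (0.69), and they lie on both sides of it in the others; Orc4 lies on the opposite side in all 3.

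Other genes of the cell cycle were taken from lists of their function. Of 39 other replication factors, 19 fell between HB and HE1 and none rose, beside 14.8% and 17.5% of all genes, and 27 were higher in HP than in HE1, beside 11%. Mcm8, a helicase related to the ring subunits, differed by -1.15 between HE1 and HB and Timeless, a fork protection factor, by -0.93. The nuclease gene Dna2 differed by 1.27 between HP and HE1. Of 18 mitosis genes, 12 fell between HB and HE1 (14.8% of all genes), 14 rose between HE1 and HE2 (6.12%), and 14 were higher in HP than in HE1 (11%). Bub1, a spindle checkpoint kinase, fell by 1.46 on the log2 scale between HB and HE1. The summed level of the mitosis genes was 3166 and 3393 CPM for HB, and 2339 and 1685 CPM for HE1. It was 2948 and 3979 CPM for HE2, and 3692 and 3344 CPM for HP. As for the members, the second HE1 library was the lower and the second HE2 library the higher of its stage.

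Of 19 other nucleotide supply genes, 9 fell between HB and HE1, beside 14.8% of all genes, and Rrm2b rose, beside 17.5%. Dut, the dUTPase, differed by -1.39 and Shmt2, a mitochondrial enzyme of 1-carbon metabolism, by -1.74. Rrm2b, a ribonucleotide reductase subunit known for use outside S phase, was at 6.28 and 5.66 CPM in HB and at 19.7 and 15.9 CPM in HE1 (1.58 ± 0.20, adjusted p = 0.000274 by edgeR), opposite to Rrm1 and Rrm2. Of 9 cyclins, kinases and regulators of S phase, 3 fell between HB and HE1 (Ccne1, Fbxo5 and Ccna2), beside 14.8% of all genes, and 5 were higher in HP than in HE1, beside 11%.

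Among 18 E2F and pocket protein genes, 4 fell and 2 rose between HB and HE1, beside 14.8% and 17.5% of all genes, with a median difference of -0.01, and 5 were higher and none lower in HP than in HE1, beside 11% and 13.9%. Their summed level was 1249 and 1282 CPM for HB and 1147 and 1036 CPM for HE1. E2f5 and E2f4, which act mainly as repressors with pocket proteins, differed by -1.18 and -0.85, whereas Rbl2, a pocket protein, and E2f2, an activator, differed by 0.74 and 0.82. E2f2 had 8 and 7.04 CPM as HB and 15.5 and 11.2 CPM as HE1, followed by 34.4 and 45.7 CPM as HE2 and 59.4 and 55.4 CPM as HP (2.11 ± 0.21 between HP and HE1, adjusted p = 0.000167 by edgeR). The difference between this list and the members was not tested.

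**Figure D5:**
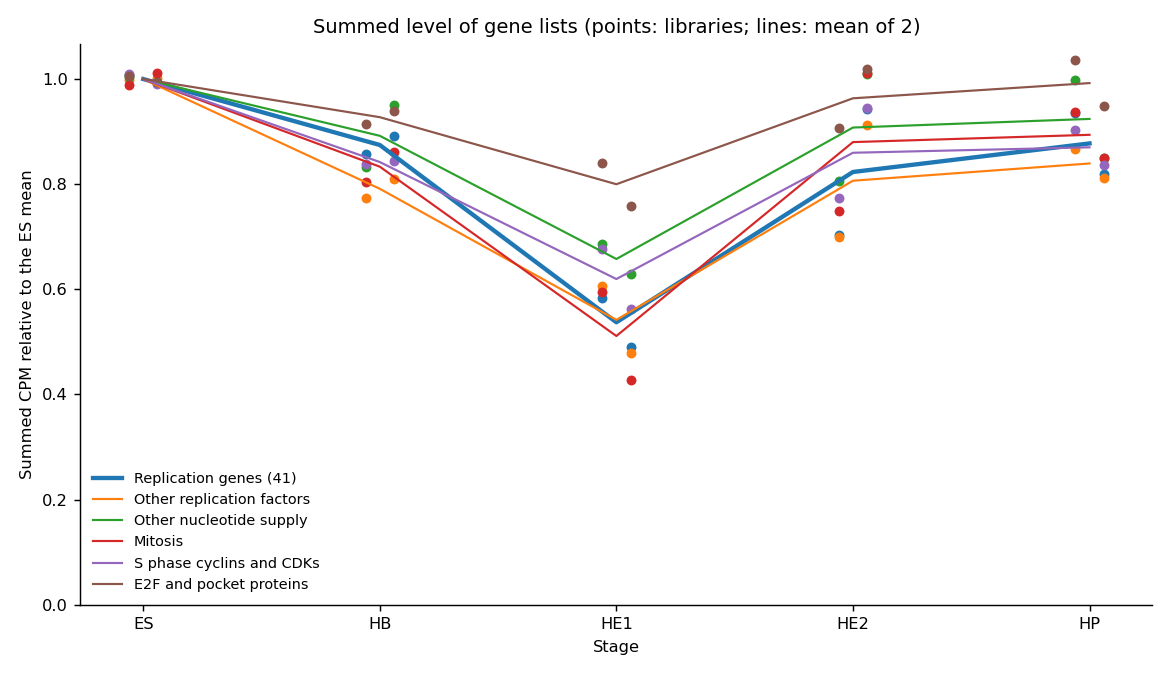
Summed CPM of the replication genes and of 5 other cell cycle lists by stage, divided by the mean of the 2 ES libraries; points are libraries and lines join the means. All 6 lists have their lowest mean at HE1; the replication genes fell from 5634 and 5860 CPM in HB to 3835 and 3226 CPM in HE1.

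The members lie on 14 chromosomes, and reads of a neighbour could reach a few of them. Exons of 3 members overlap those of another gene on the same strand, over 1.46% of the exon length of Orc5 (Gm15421), 3.89% of Mcm7 (Mir25 and Mir93) and 8.50% of Pole2 (Gm49384). Since fragments on shared bases were counted for each gene, the values of these 3 include such reads. Exons of 14 members overlap a gene on the opposite strand, and reads were counted by strand.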

How the data were processed

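Nuclear RNA-seq libraries (rRNA-depleted, directional) were analysed, 2 for each of ES, HB, HE1, HE2 and HP. The authors removed rRNA reads with RiboDetector, trimmed with Trimmomatic, used Hisat2 (v2.2.1) for alignment (genome build mm10) and deposited raw counts per gene from featureCounts (v2.0.1; Ensembl release 102, reverse-stranded). Pairs with several alignments were not counted, so reads that fit near-identical copies are missing. The authors' deposited matrix of mean expression per stage, a score without replicates, served to find the members and to set the genes of 1 alternative fit.

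Counts were filtered with filterByExpr, scaled by TMM and fitted with edgeR 4.0.16 (R 4.3.3), stage as the single term, using glmQLFit and glmQLFTest over all 10 libraries. The fit has 5 residual degrees of freedom. limma 3.58.1 and DESeq2 1.42.0 were alternatives, beside total counts, no filter, a replicate block, the 4 libraries compared, matrix genes only, library sizes without the 20 top genes, a 2-fold threshold and leaving out each library. The code of the fit was checked on simulated counts with independent genes and 1 spread for all genes. That setting is simpler than these data, so the check gives no measure of error for them.

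The members and lists were chosen with earlier results of these data known. Log2 differences with an adjusted p are given for at most the 8 largest called members per direction and comparison and, where none was called, for the smallest adjusted p. Other members are named to account for all 41, and other genes come from the lists, at most 4 per list and comparison. Counting error is small at these depths and the number of libraries limits precision. CPM per kilobase were taken over the union of exons. Promoter windows came from RefSeq (GRCm38.p6). No set test was run.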

Additional observations from a re-analysis of the deposited data

How the results depend on the processing

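With 2 libraries per stage, single libraries moved many counts. The counts below are of members, and the share of all genes called under each setting is not given except where stated. They show how the calls of members moved and are not compared with all genes. Leaving out 1 library gave 0 members higher and between 4 and 6 lower in HB against ES, between 12 and 28 lower in HE1 against HB, between 0 and 31 higher in HE2 against HE1, between 8 and 31 higher in HP against HE1, and between 2 and 5 higher and 5 and 7 lower in HP against ES. In these fits the lone library of a stage is assumed to vary like the other stages. The medians ranged from -0.825 to -0.551 in HE1 against HB and from -0.21 to -0.0139 in HP against ES. In the 4 libraries compared, HB against ES gave 7 higher and 14 lower and HE2 against HE1 gave 0 higher; this fit has fewer libraries. With a threshold of 2-fold, the counts were 0 higher and 1 lower in HB against ES, and 6 lower in HE1 against HB (8.19% of all genes). They were 1 higher in HE2 against HE1, 3 higher in HP against HE1, and 0 higher and 3 lower in HP against ES. Among matrix genes, 1 member (Tyms) was higher in HE1 against HB. With total counts the median in HB against ES was -0.05. The replicate block gave 1 member higher in HB against ES and 11 in HE2 against HE1, and it moved no other count of members by over 1.5 times. The labels do not say whether the replicate numbers pair libraries of different stages. The correlation of replicate 2 minus replicate 1 between stages lay between -0.316 and 0.213 over 10 pairs of stages, and 2 exceeded 0.1. Such a correlation cannot tell whether libraries with the same number came from 1 differentiation. Of 576 alternative values for 48 named differences, 499 stayed on their side of the threshold, 77 lost the call, 64 of them without 1 library, and 0 changed sign. The causes were not tested.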
